A study of Mus musculus with 30 samples.

Results

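Osteoclast cultures of 6-month-old Terc-/- mice were compared with cultures of 6-month-old wild-type mice, in 6 of the 30 libraries of the series. Osteoclasts are the multinucleated cells that resorb bone, and they arise by fusion of macrophage precursors under macrophage colony-stimulating factor (M-CSF), which keeps the precursors alive, and RANKL, which drives their differentiation. The mature cell seals an area of bone, acidifies it with a proton pump and releases tartrate-resistant acid phosphatase and cathepsin K. Terc is the RNA template of telomerase, the enzyme that extends chromosome ends, and cells without it cannot renew their telomeres by this route.

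Members were the libraries labelled as 6 months old, harvested when large multinucleated cells had appeared, whose titles carry no further mark. There were 3 Terc-/- libraries (replicates 1, 2 and 4) and 3 wild-type libraries (replicates 1, 2 and 4). In both groups bone marrow-derived macrophages of C57BL/6J mice were cultured on bone slices with M-CSF at 25 ng/ml and RANKL at 100 ng/ml, and RNA captured with oligo(dT) was sequenced. The series asks how loss of Terc and age affect osteoclast gene expression, and of its other 8 groups only the unmarked cultures of 1-month-old Terc-/- and wild-type mice, 3 libraries each, were compared here; the rest entered 1 alternative fit, for its estimate of the spread. The labels give no breeding generation for the Terc-/- mice, no sex and no day of harvest, and they do not say whether replicates came from separate mice. P-values therefore measure the spread between these libraries, which may be technical.

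Levels are in TPM, a unit that gives each gene's share of a library's transcripts after correction for gene length. Between 11938 and 12730 genes reached 1 TPM in a library, and this number did not separate the genotypes (exact permutation test, two-sided p = 1, smallest possible 0.1). Read depth is unknown. Differences are Terc-/- minus wild type on the log2(TPM + 1) scale after scaling between libraries, given with the standard error, and this scale understates changes of genes at low levels. Adjusted p-values come from limma with Benjamini-Hochberg adjustment over 12536 genes whose mean level over these 6 libraries reached 1 TPM, and a gene is said to have changed, or to be called, below 0.05. Terc was listed at 0 TPM in all 3 Terc-/- libraries and at 0, 0 and 0.341 TPM in the wild-type libraries, so its level could not check the genotype labels. All 6 libraries carried transcripts of Y-linked genes, with Eif2s3y between 50.5 and 82.0 TPM, and Xist did not exceed 0.013 TPM. The Y-linked genes Kdm5d, Uty and Ddx3y were lowest in wild-type replicate 2, at 0.982, 1.01 and 14.4 TPM. In the other libraries they lay at 7.68 to 16.6, 6.14 to 14.1 and 20.7 to 34.4 TPM. The columns of the genotypes stand in separate deposited tables, and table and genotype cannot be told apart.

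Wild-type replicate 2 stood apart from the other 5 libraries. Its correlation across genes with wild-type replicates 1 and 4 was 0.884 and 0.924, whereas these 2 correlated with each other at 0.974 and the Terc-/- libraries among themselves at 0.969 to 0.985. Mitochondrially encoded transcripts made up 3.30% of replicate 2, against 9.57% and 8.85% of wild-type replicates 1 and 4 and 4.90% to 6.53% of the Terc-/- libraries. Genes with short exonic sequence lay high and genes with long exonic sequence lay low in this library. The median log2 deviation from the other wild-type libraries fell from 0.71 in the shortest quartile of genes through 0.09 and -0.18 to -0.51 in the longest, while in the Terc-/- libraries no quartile passed 0.09 in either direction. The 30 cytosolic ribosomal protein genes, which are short, summed to 83144 TPM in wild-type replicate 2 and to between 43307 and 51330 TPM in the other 5 libraries. Tests were therefore run with all 6 libraries and without wild-type replicate 2, and for many genes only 1 of the 2 is printed. A gene given only with its test without replicate 2 was not called with 6 libraries. All 78 genes called with 6 libraries were also called without it, in the same direction, though their differences moved. Leaving it out did not remove the trend with length. The median difference between genotypes ran from -0.119 in the shortest to 0.0955 in the longest quartile with 6 libraries, and from 0.0791 to -0.0858 without replicate 2. In the latter test 284, 258, 202 and 112 genes were called higher, from the shortest to the longest quartile, and 51, 76, 70 and 74 lower. The part of gene length in the calls was not tested.

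**Figure D1:**
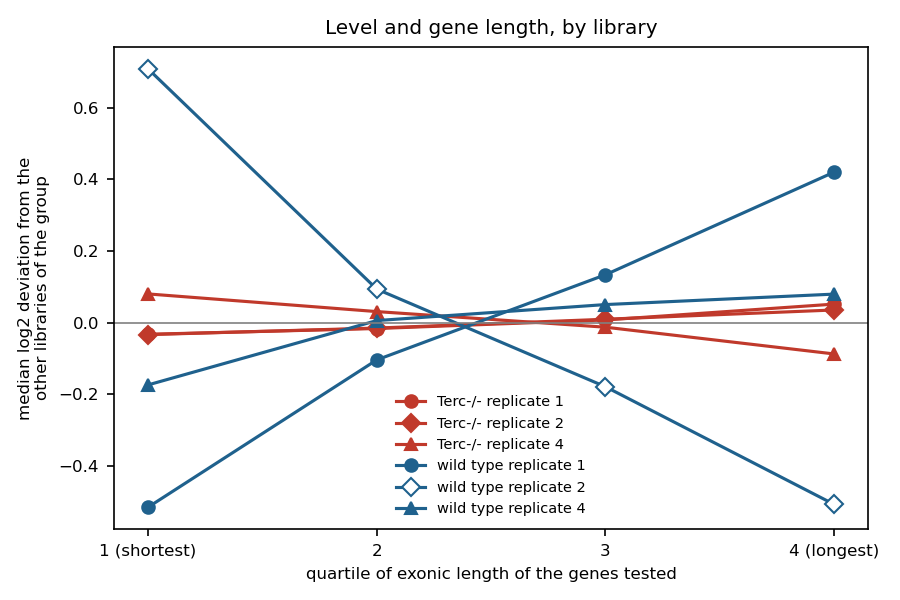
Median log2 deviation of each of the 6 libraries from the other libraries of its group (vertical axis), for the genes tested in 4 quartiles of exonic length (horizontal axis); lines join the quartiles of a library. Wild-type replicate 2 runs from 0.71 in the shortest to -0.51 in the longest quartile, wild-type replicate 1 runs the other way, from -0.52 to 0.42 relative to replicates 2 and 4, and the Terc-/- libraries stay within 0.09 of 0.

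The cultures carried the osteoclast programme in both genotypes. All 10 osteoclast markers were above 0 in every library, and Acp5, which encodes tartrate-resistant acid phosphatase, was at 4831, 5403 and 1860.05 TPM in Terc-/- and 5679.9, 4668 and 4553 TPM in wild-type replicates 1, 2 and 4 (values are in this replicate order throughout). Ctsk, which encodes cathepsin K, was at 3392, 3576 and 1499 TPM and 6064, 2469 and 3822 TPM. Terc-/- replicate 4 was the lowest of the 6 libraries in 9 of the 10 markers, and the marker sum was 10818, 11303 and 4617 TPM in Terc-/- against 14670, 9445 and 10630 TPM in wild type. The groups overlapped. None of the 10 markers was called with 6 or with 5 libraries. The 15 macrophage markers, whose sum is mostly lysozyme (Lyz2), summed to 47065, 42875 and 49256 TPM in Terc-/- and to 31355, 23858 and 31517 TPM in wild type, which did not overlap. In a bulk culture, fewer cells of a type and less RNA per cell cannot be told apart. Of the neutrophil markers, S100a9, Mpo, Elane and Retnlg were listed at 0 in all 6 libraries. Others of these markers went in both directions. Csf3r, the receptor for granulocyte colony-stimulating factor, was higher in every Terc-/- library, at 9.4, 10.7 and 5.55 TPM against 5.29, 1.8 and 1.55 TPM. So was Camp, an antimicrobial peptide gene of neutrophil granules, at 1.43, 0.667 and 0.934 TPM against 0, 0 and 0.11 TPM. Cxcr2 was lower in every Terc-/- library, at 0.078, 0.0286 and 0.0806 TPM against 0.308, 0.135 and 0.276 TPM. Ltf was lower as well, at 0, 0 and 0 TPM against 0.0315, 0.48 and 0.0213 TPM. Camp, Cxcr2 and Ltf lay below the level needed for the test.

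With all 6 libraries, 78 of 12536 genes were called (0.622%), 56 higher (0.447%) and 22 lower (0.175%) in Terc-/-. Without wild-type replicate 2, 1130 genes were called (9.01%), 857 higher (6.84%) and 273 lower (2.18%), and these held all 78 genes with the same direction. Leaving out Terc-/- replicate 4 as well gave 953 called genes (7.6%), 629 higher (5.02%) and 324 lower (2.58%). A fit that took its spread from all 10 groups of the series called 3637 (29%), 1930 higher (15.4%) and 1707 lower (13.6%). At an unadjusted p below 0.05 there were 2066 genes with 6 libraries and 3759 without wild-type replicate 2. The median difference of all genes was 0.01 and -0.01. The number with 6 libraries rested on each library: it was 7 without Terc-/- replicate 1, 7 without replicate 2 and 3 without replicate 4, and 28 and 1 without wild-type replicates 1 and 4. Of the 78 genes, 70 were protein coding, they lay on 20 chromosomes, and 9 belonged to a gene list described below. None of the 100 tested genes within 5 Mb of Terc (mm10, chromosome 3, 96414437 to 96414859, minus strand) was called with 6 libraries, and 9 were called without wild-type replicate 2.

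The highest differences with 6 libraries were in Lcn2 and Dcn. Lcn2 encodes lipocalin 2, a secreted iron-siderophore binding protein of the acute-phase response, and was at 128, 216 and 272 TPM in Terc-/- against 1.22, 4.67 and 0.995 TPM in wild type. Every Terc-/- library lay far above every wild-type library, with a difference of 5.90 ± 0.59 (adjusted p = 0.0211; without wild-type replicate 2, 6.61 ± 0.33, adjusted p = 0.00398). Dcn encodes decorin, a small leucine-rich proteoglycan that binds collagen fibrils. It was at 65.3, 78.8 and 98.2 TPM against 1.69, 1.03 and 2.51 TPM, again without overlap, a difference of 4.81 ± 0.25 (adjusted p = 0.00314). Dcn was called under all 14 alternatives tried with 6 libraries, with a highest adjusted p of 0.0365, and Lcn2 under 8 of 14, with a highest adjusted p of 0.126. The other 20 genes named from the extremes of this test were called under 5 to 13 of the 14.

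Other genes higher in Terc-/- encode proteins of several kinds. Calb2, the calcium-binding protein calretinin, was at 11.3, 22.1 and 23.7 TPM in Terc-/- and at 0, 0.054 and 0.0456 TPM in wild type (difference 4.13 ± 0.30, adjusted p = 0.00647). Acpp, prostatic acid phosphatase, was at 50.7, 48.8 and 77.5 TPM against 4.07, 2.8 and 4.28 TPM (difference 3.52 ± 0.25, adjusted p = 0.00647). In both the groups did not overlap. Col18a1, the collagen whose fragment is endostatin, was at 84.1, 61.7 and 60.4 TPM against 9.08, 5.88 and 9.79 TPM (difference 2.79 ± 0.20, adjusted p = 0.00647). Slc7a2, a cationic amino acid transporter that takes up arginine, was at 29.6, 32.2 and 32 TPM against 6.26, 1.55 and 4.07 TPM (difference 2.73 ± 0.27, adjusted p = 0.0206). Clec4e, the C-type lectin Mincle that binds mycobacterial glycolipid and signals through Fcer1g, had nearly equal Terc-/- libraries at 111, 109 and 112 TPM against 23.3, 7.83 and 18.4 TPM (difference 2.66 ± 0.23, adjusted p = 0.012). Lrmda rose by 3.11 ± 0.32 (adjusted p = 0.0255), from 1.63, 2.45 and 1.1 TPM to 25.9, 25.6 and 22.2 TPM.

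Iglc2, Tmem254c and Hist1h4m were also among the highest, and all 3 belong to families of near-identical copies between which reads may be split, so their values are uncertain. Hist1h4m was listed at 0 in all 3 wild-type libraries and at 9.05, 5.05 and 6.32 TPM in Terc-/-, so its difference of 2.87 ± 0.25 depends on the added constant and no fold is given. Iglc2 was at 5.81, 7.12 and 14.4 TPM against 0, 0.313 and 0.161 TPM, and Tmem254c at 11.1, 8.16 and 10.4 TPM against 0.282, 0 and 0 TPM.

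The genes lower in Terc-/- included secreted and matrix proteins. Prss23, a secreted serine protease, was at 2.58, 10.1 and 6.69 TPM in Terc-/- and 56.7, 37.1 and 55.2 TPM in wild type (difference -3.02 ± 0.40, adjusted p = 0.0328). Ogn, osteoglycin, another small leucine-rich proteoglycan, was at 0.1, 0.35 and 0.592 TPM against 8.05, 4 and 8.02 TPM (difference -2.55 ± 0.23, adjusted p = 0.012). Ccdc80, a matrix-associated secreted protein, was at 9.91, 18.3 and 18 TPM against 84.6, 49.1 and 72.2 TPM (difference -2.24 ± 0.26, adjusted p = 0.0298). Each of the 3 was lower in every Terc-/- library than in any wild-type library. Pla1a, a phosphatidylserine-specific phospholipase, was at 2.77, 5.01 and 6.5 TPM against 35.8, 27.6 and 26.3 TPM (difference -2.60 ± 0.32, adjusted p = 0.0307). Ly86, the MD-1 protein that pairs with the Toll-like receptor homologue RP105, was at 8.24, 9.54 and 11 TPM against 67.7, 35.4 and 60 TPM, with tight Terc-/- values (difference -2.48 ± 0.19, adjusted p = 0.00647). Hoxc10, a homeobox factor of posterior body regions, was at 0.557, 0.73 and 1.64 TPM against 8.18, 6.49 and 12.9 TPM (difference -2.45 ± 0.31, adjusted p = 0.0307). The remaining lowest genes were Pmaip1, Ppfia4, Yes1, Medag and Pram1, with differences between -2.22 and -1.66 and adjusted p-values from 0.0307 to 0.0467. Wild-type replicate 2 was the lowest wild-type library for 10 of these 11 genes and still lay above all Terc-/- libraries for each.

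**Figure D2:**
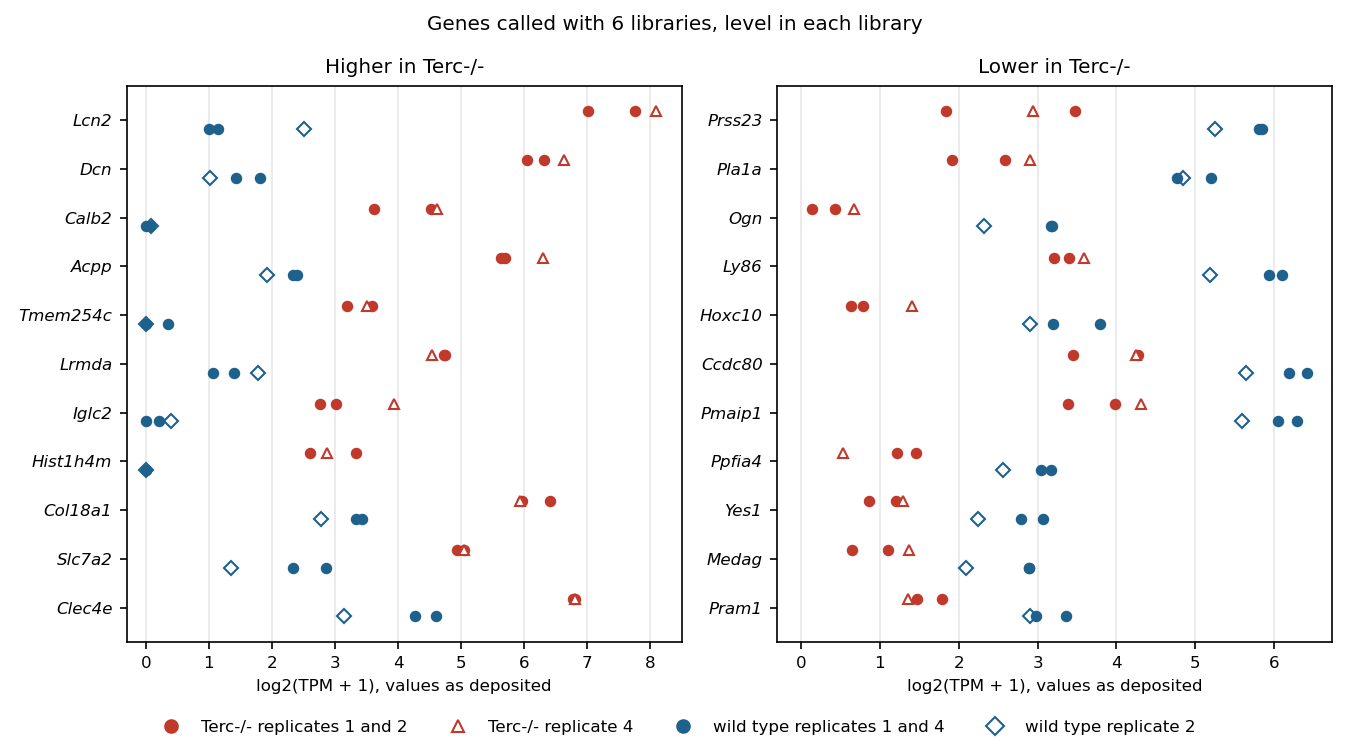
Level of the 11 highest (left) and 11 lowest (right) genes named in each of the 6 libraries, as log2(TPM + 1) of the deposited values (horizontal axis); a symbol is a library, red for Terc-/- and blue for wild type, with open symbols for Terc-/- replicate 4 and wild-type replicate 2. The genotypes do not overlap in any gene shown, and for Lcn2 the Terc-/- libraries lie at 128, 216 and 272 TPM against at most 4.67 TPM in wild type.

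Several further called genes that rose, chosen here after their values were seen, encode cell surface receptors, ligands and a regulator of immune signalling. The choice fixed their direction. Other called genes of immune receptors and ligands fell, among them Ly86 (difference -2.48) and the co-stimulatory ligand Cd80 (difference -1.39). Tlr2, a receptor for bacterial lipoproteins, was at 234, 223 and 242 TPM in Terc-/- and 113, 61.1 and 90.8 TPM in wild type (difference 1.29 ± 0.18, adjusted p = 0.0369). Irak3, a kinase-related protein that dampens Toll-like receptor signalling, was at 51.2, 43.6 and 54.7 TPM against 16.4, 6.39 and 12.9 TPM (difference 1.93 ± 0.22, adjusted p = 0.0295). Tnfrsf1b, TNF receptor 2, was at 284, 252 and 269 TPM against 101, 48.5 and 63.4 TPM (difference 1.82 ± 0.20, adjusted p = 0.0295). Cd274, the checkpoint ligand PD-L1, was at 46, 48.2 and 51.8 TPM against 15.5, 4.23 and 10.7 TPM (difference 2.18 ± 0.27, adjusted p = 0.0307). The groups were apart in each of these. Notch1, a receptor that also acts in osteoclast precursors, was at 30.7, 34.7 and 39 TPM against 13.6, 8.57 and 8.45 TPM (difference 1.56 ± 0.22, adjusted p = 0.0414).

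The acute-phase and granulocyte-associated list had the highest median of all lists. Its 8 tested genes encode secreted antimicrobial and acute-phase proteins, and C/EBP family transcription factors are known to induce several of them. Only Lcn2 was called with 6 libraries, where 0.447% of all genes rose, and 7 of 8 rose without wild-type replicate 2, where 6.84% of all genes did; none fell. The median difference was 3.10 with 6 libraries and 3.69 without replicate 2. The 13 entries of the list summed to 3673, 5687 and 9905 TPM in Terc-/- and to 238, 786 and 274 TPM in wild type. Terc-/- replicate 4 and wild-type replicate 2 had the highest sums of their groups, and the groups did not overlap. The 11 neutrophil markers summed to 104, 109 and 208 TPM against 23.3, 67.9 and 29 TPM, nearly all of it S100a8, which is in both lists; the part of neutrophils in the result was not tested. With Terc-/- replicate 4 and wild-type replicate 2 left out, 7 of the 8 genes were called (5.02% of all genes rose) and the median was 3.40.

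Promoter sequence is shown for 2 members of that list, and for the cytokine gene Il6 described next, because these genes lay apart between the genotypes and their inducers have known recognition sequences. Each line gives the 250 bases before the RefSeq start (GRCm38.p6), written 5′ to 3′ along the gene, with capitals marking matches to the C/EBP-like pattern TTNCNNAA on either strand and, in Il6, also the kappaB consensus. The windows lie at chr2:32387740-32387989 (minus strand), chr7:46715677-46715926 (minus strand) and chr5:30012864-30013113 (plus strand).
Lcn2: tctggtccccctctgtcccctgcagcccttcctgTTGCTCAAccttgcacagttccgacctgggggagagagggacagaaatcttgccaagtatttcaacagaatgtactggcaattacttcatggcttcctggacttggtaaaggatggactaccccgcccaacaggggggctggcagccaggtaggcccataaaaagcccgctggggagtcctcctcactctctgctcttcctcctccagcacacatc
Saa3: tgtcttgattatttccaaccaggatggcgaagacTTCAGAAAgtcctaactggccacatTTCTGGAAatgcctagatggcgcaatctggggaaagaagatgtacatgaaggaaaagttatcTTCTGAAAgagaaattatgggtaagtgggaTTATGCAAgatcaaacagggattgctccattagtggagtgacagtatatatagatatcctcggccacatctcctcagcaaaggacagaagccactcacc
Il6: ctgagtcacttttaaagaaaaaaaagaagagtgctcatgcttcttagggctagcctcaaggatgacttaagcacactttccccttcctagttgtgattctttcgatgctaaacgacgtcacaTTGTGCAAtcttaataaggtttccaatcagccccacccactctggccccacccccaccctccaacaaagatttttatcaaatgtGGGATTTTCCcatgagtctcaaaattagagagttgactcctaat
The Lcn2 window held 1 match to TTNCNNAA, the Saa3 window 4 and the Il6 window 1, and the marked matches did not overlap each other. Of the 6 tested list members with an entry in the RefSeq promoter table, 5 held at least 1 match, and Stfa3 held none. The pattern is common: 36.8% of 32851 promoters of the same length held it, and 3.90% held the kappaB consensus. The AP-1 pattern TGANTCA (6.75% of promoters) had 1 match in Il6, and the core of the interferon-stimulated response element (2.98%) had 1 in Saa3 that overlapped a C/EBP-like match; the capitals do not mark these 2 patterns. A match describes letters and is not evidence of binding.

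Saa3, serum amyloid A3, was the most abundant member, at 2072, 3804 and 6463 TPM in Terc-/- and 93.7, 384 and 106 TPM in wild type. No wild-type library reached the lowest Terc-/- library, and wild-type replicate 2 was the highest of its group (difference 4.41 ± 0.81, adjusted p = 0.073; without it 5.29 ± 0.48, adjusted p = 0.0118). Wfdc17, a WAP-domain antiprotease-like protein, was at 1055, 1100.3 and 1927 TPM against 99.6, 249.99 and 98.5 TPM (difference 3.12 ± 0.60, adjusted p = 0.0837; without replicate 2 3.80 ± 0.31, adjusted p = 0.0113). Hp, haptoglobin, which binds free haemoglobin, was at 80, 106 and 157 TPM against 9.97, 16 and 7.75 TPM (difference 3.09 ± 0.47, adjusted p = 0.0508; without replicate 2 3.59 ± 0.30, adjusted p = 0.0113). Slpi, secretory leukocyte protease inhibitor, was at 152, 208 and 437 TPM against 15.3, 53.3 and 31.4 TPM, and S100a8, a calcium-binding alarmin, at 92.5, 97 and 202 TPM against 17.6, 65.5 and 26.9 TPM. Both rose only in the test without wild-type replicate 2 (adjusted p = 0.0272 and 0.0299). Cebpb, a C/EBP factor itself, was at 101, 86.8 and 99 TPM against 12.1, 32.7 and 21 TPM. Its groups did not overlap, and it passed only without replicate 2 (difference 2.02 ± 0.50, adjusted p = 0.129, then 2.59 ± 0.28, adjusted p = 0.0146). Stfa3, a stefin that inhibits cysteine proteases and has several close paralogs, was at 90.6, 149 and 436 TPM against 0.52, 12.8 and 1.45 TPM.

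Cytokines and chemokines of inflammation were higher as well. Of 24 tested list genes 1 rose with 6 libraries (Il1rn; 0.447% of all genes), 11 rose without wild-type replicate 2 (6.84% of all genes), and none fell in either test; the medians were 1.26 and 1.52. Il1rn, the interleukin 1 receptor antagonist, was at 106, 97.7 and 161 TPM against 33.6, 14.5 and 31 TPM (difference 2.07 ± 0.27, adjusted p = 0.0328). Nos2, inducible nitric oxide synthase, was at 36.5, 34.3 and 98.2 TPM against 3.11, 1.31 and 7.43 TPM (difference 3.46 ± 0.55, adjusted p = 0.0541; without replicate 2 3.18 ± 0.58, adjusted p = 0.0349). Tnf, which promotes osteoclast formation together with RANKL, was at 78.6, 64.8 and 104 TPM against 28.2, 25.3 and 26.2 TPM (difference without replicate 2 1.62 ± 0.23, adjusted p = 0.0219). Ccl3, a chemokine of myeloid cells, was at 215, 213 and 463 TPM against 33, 59.4 and 47.8 TPM (without replicate 2 2.86 ± 0.43, adjusted p = 0.0241). Il6 was at 19.7, 27.2 and 43 TPM against 7.46, 5.53 and 6.22 TPM (without replicate 2 2.00 ± 0.33, adjusted p = 0.0293). Terc-/- replicate 4 was the highest library for each of these 5 genes and also held the lowest osteoclast markers; the part of that library's makeup in the result was not tested. Without this library and wild-type replicate 2, 12 of 24 rose (5.02% of all genes) and the median was 1.22.

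**Figure D3:**
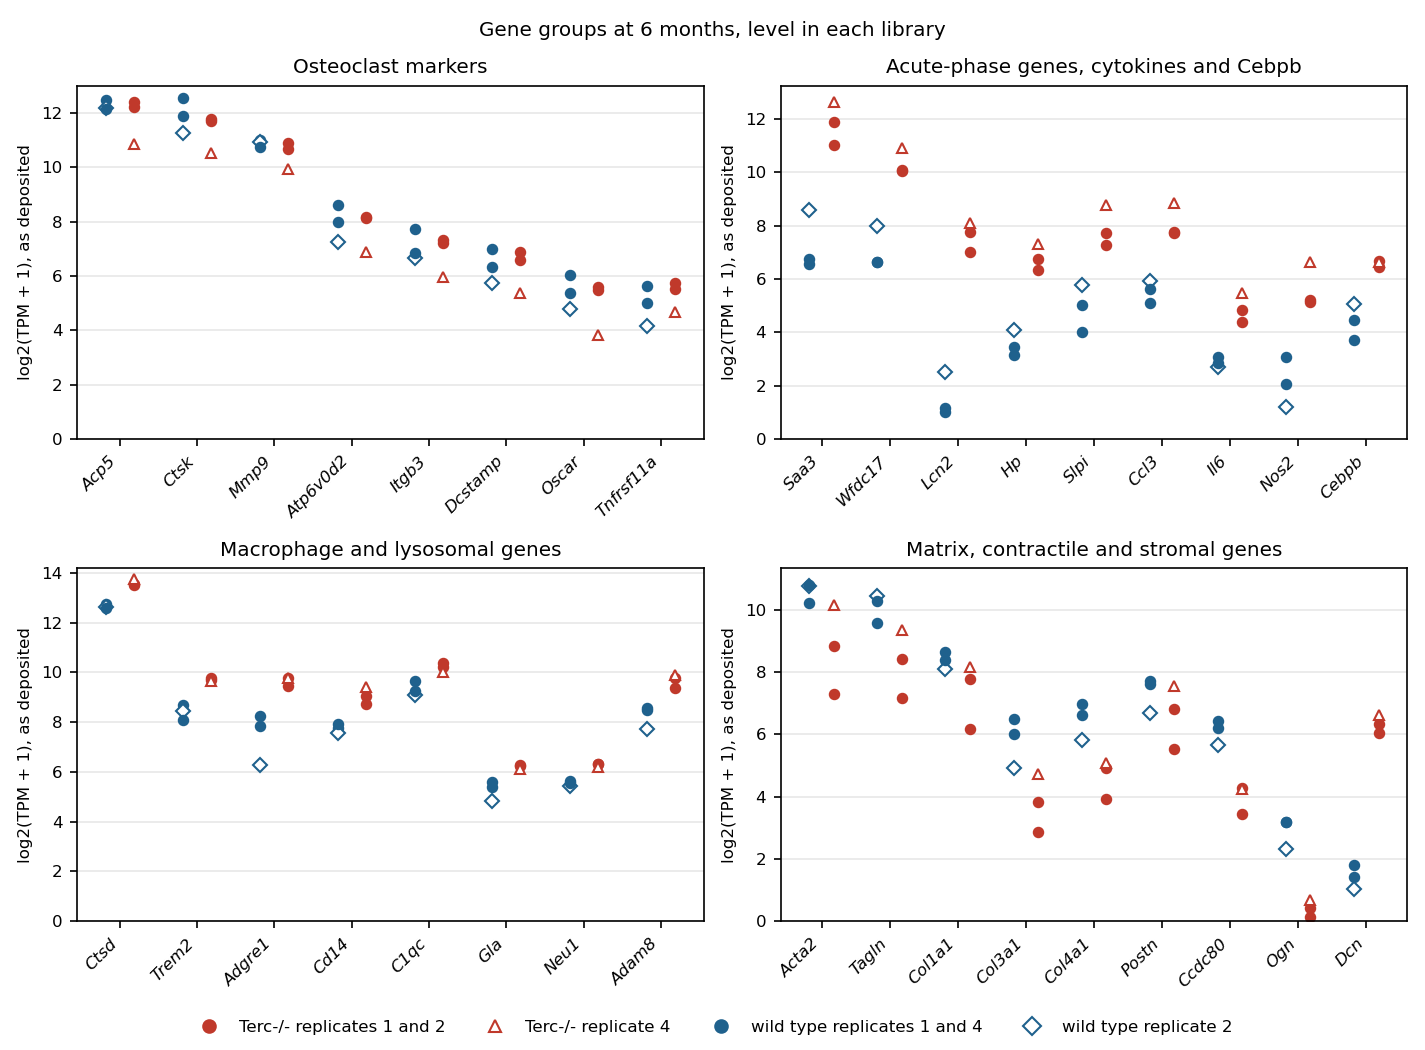
Levels of named genes in each of the 6 libraries, as log2(TPM + 1) of the deposited values (vertical axis), in 4 panels of osteoclast markers, acute-phase genes and cytokines, macrophage and lysosomal genes, and matrix and contractile genes; red symbols are Terc-/- and blue symbols wild type. Terc-/- replicate 4 (open triangle) is low in the osteoclast markers and high among the acute-phase genes and cytokines, and Dcn is the gene of the matrix panel in which Terc-/- lies above wild type.

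Over the 8 lists of osteoclast differentiation and function, 1 of 132 tested genes rose (0.758%, against 0.447% of all genes) and none fell with 6 libraries. Without wild-type replicate 2, 21 rose (15.9%, against 6.84% of all genes) and 1 fell. No resorption gene, which include the cathepsin K and acid phosphatase genes, was called in either test (18 tested, medians -0.01 and -0.12). With Terc-/- replicate 4 also left out, 1 of the 18 rose (5.02% of all genes) and the median was 0.09. Of 18 proton pump genes, Atp6v0a1 rose without replicate 2 (difference 0.89 ± 0.18, adjusted p = 0.0402; with 6 libraries adjusted p = 0.169). Among 18 receptor and signalling genes 4 rose without replicate 2, and these include the immune receptor Trem2 and the ITAM adaptors Tyrobp and Fcer1g. Trem2 was at 873, 826 and 795 TPM against 414, 345 and 271 TPM (without replicate 2 1.39 ± 0.16, adjusted p = 0.016). Tyrobp, also called DAP12, through which Trem2 signals, was at 2395, 2327 and 2336 TPM against 1194, 1712 and 1210.2 TPM, and Fcer1g at 1359, 1130.3 and 1430.3 TPM against 540.2, 667 and 608 TPM (adjusted p without replicate 2 = 0.0192 and 0.0257). Plcg2, the phospholipase downstream of these adaptors, was the fourth. With all 6 libraries no receptor gene passed, the adjusted p of Trem2 being 0.135.

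Among 21 transcription factors of the lineage, Junb, Jund and Esrra rose without wild-type replicate 2, where 6.84% of all genes rose, and none with 6 libraries. The counts of the other lists in this paragraph stand against the same 6.84%. Junb, an AP-1 subunit, was at 302, 283 and 259 TPM against 120.3, 108 and 127 TPM, without overlap (adjusted p = 0.0929, then 0.0146). Jund was at 54.9, 54.8 and 49 TPM against 17.5, 47.2 and 20.3 TPM. These deposited values did not overlap, but wild-type replicate 2 came close to the lowest Terc-/- library. Of 15 fusion genes Adam8 and Cd47 rose without replicate 2; Adam8, a membrane metalloprotease, was at 873, 657 and 948 TPM against 356, 209.5 and 382 TPM (difference 1.23 ± 0.22, adjusted p = 0.0345). Of 20 podosome genes, Fermt3, Rac2 and Ptk2b rose in the same test, with differences of 0.69, 0.84 and 0.57. Of 12 tested genes that signal from osteoclasts to bone-forming cells, Tgfb1, Igf1 and C3 rose there. Igf1, insulin-like growth factor 1, was at 222, 149 and 188 TPM against 83.6, 56.3 and 55.1 TPM (difference 1.51 ± 0.22, adjusted p = 0.0228).

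Inhibitors of osteoclast formation supplied the single osteoclast-list gene called with all 6 libraries. Id2, which blocks DNA binding by basic helix-loop-helix factors, was at 223, 245 and 247 TPM against 87.4, 61.2 and 105 TPM, without overlap (difference 1.37 ± 0.20, adjusted p = 0.0431). Without wild-type replicate 2, 5 of 15 such genes rose and 1 fell (6.84% and 2.18% of all genes). Irf8, a transcription factor that restrains osteoclast formation, was at 78.4, 76.1 and 88.2 TPM against 52.3, 33.5 and 49.6 TPM (without replicate 2 0.74 ± 0.14, adjusted p = 0.0345). The cytokine signalling suppressors Socs1 and Socs3 rose by 1.64 and 1.47 in that test. Tnfrsf11b, osteoprotegerin, the decoy receptor for RANKL that stromal cells make, was at 5, 6.83 and 7.32 TPM against 17, 3.41 and 17.3 TPM. It fell without replicate 2 (difference -1.23 ± 0.20, adjusted p = 0.0282), and replicate 2 lay below all Terc-/- libraries.

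A part of the macrophage and lysosomal genes rose in Terc-/-, most of them only in the test without wild-type replicate 2. Of 28 lysosomal genes 9 rose in that test (6.84% of all genes) and none with 6 libraries, with medians of 0.44 and 0.52. Ctsd, the aspartic protease cathepsin D, was at 11831, 12049.8 and 13722 TPM against 6863, 6302 and 6248 TPM without overlap (difference 1.02 ± 0.17, adjusted p = 0.0282; with 6 libraries 0.80 ± 0.35, adjusted p = 0.309). Gla, alpha-galactosidase, and Neu1, a neuraminidase, rose by 0.81 and 0.76. Of 15 macrophage markers 5 rose, all without replicate 2 only (again 6.84% of all genes). In both tests 11 of the 15 had a higher mean in Terc-/- and 4 a lower one. Of all genes 6355 were higher and 6181 lower with 6 libraries. Adgre1, the F4/80 antigen, was at 877, 697 and 876 TPM against 299, 76.1 and 228 TPM (difference 2.07 ± 0.35, adjusted p = 0.0599; without replicate 2 1.72 ± 0.18, adjusted p = 0.0135). Cd14, the lipopolysaccharide co-receptor, was at 534, 421 and 683 TPM against 216, 190.4 and 244 TPM (adjusted p = 0.134, then 0.0407). Other markers overlapped between the genotypes. Aif1 was at 54.2, 53.6 and 31.8 TPM against 85.4, 224 and 47.7 TPM. Cx3cr1 was at 91.4, 104 and 53.2 TPM against 129, 78.4 and 78.1 TPM. In the macrophage activation list, Clec4e rose and the co-stimulatory ligand Cd80 fell with 6 libraries, Cd80 being at 13, 14.1 and 13.4 TPM against 36.7, 29.4 and 34.4 TPM (difference -1.39 ± 0.19, adjusted p = 0.0371). Pf4, a platelet chemokine kept here as a megakaryocyte marker, was at 3942, 3106 and 6071 TPM against 948, 2413 and 1011 TPM (without replicate 2 2.19 ± 0.33, adjusted p = 0.0238). The 2 other megakaryocyte markers that reached the level for the test did not follow it: Ppbp overlapped, at 91, 77.3 and 183 TPM against 92.6, 48.6 and 97 TPM, and Itga2b was lower in every Terc-/- library, at 0.144, 0.183 and 0.98 TPM against 2.05, 1.26 and 2.15 TPM, and was not called with 6 or with 5 libraries.

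Antigen presentation genes moved in both directions. Of 16 class I genes 4 rose without wild-type replicate 2 (6.84% of all genes) and none with 6 libraries; the heavy-chain gene H2-D1, which has close paralogs, was at 1099.7, 1066 and 1039 TPM against 633, 374 and 474 TPM (adjusted p = 0.018 in the former). Of 18 genes of the class II and interferon gamma list, none was called with 6 libraries, and without replicate 2 1 rose and 2 fell (6.84% and 2.18% of all genes), the latter being the class II chains H2-Eb1 and H2-Aa. H2-Eb1 was at 10.2, 31.4 and 10.1 TPM against 110.2, 112 and 95.4 TPM, without overlap (difference -2.89 ± 0.45, adjusted p = 0.0531; without replicate 2 -2.62 ± 0.46, adjusted p = 0.0321). H2-Aa was at 16.4, 49.8 and 17 TPM against 156, 94.9 and 124 TPM (adjusted p = 0.0589, then 0.0374). Of 35 genes of the type I interferon response, which senses viral and misplaced nucleic acid, 3 rose without replicate 2 (Bst2, Oas1a and Isg15), a share near the 6.84% of all genes, and none with 6 libraries (medians 0.35 and 0.49). Bst2, at 709.9, 638 and 891 TPM against 407, 689 and 384 TPM, overlapped through replicate 2.

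Matrix and contractile genes, which fibroblasts and smooth muscle cells express strongly, had lower means in Terc-/- in most cases. Dcn was an exception, as was Col18a1 above, a collagen that is not in the list. Of 25 collagen and matrix genes Dcn rose and Ogn fell with 6 libraries. Without wild-type replicate 2, 1 rose and 6 fell (6.84% and 2.18% of all genes), and with Terc-/- replicate 4 also left out 1 rose and 14 fell (5.02% and 2.58% of all genes). The list medians in these tests were -1.19, -1.17 and -1.62. The summed level of the list overlapped, at 11662, 9380 and 16078 TPM in Terc-/- against 13533, 7507 and 15939 TPM in wild type. That of the contractile list did not, at 1268, 2808 and 4780 TPM against 6097, 8953 and 8495 TPM. Col3a1, a fibrillar collagen, was at 6.31, 13 and 25.2 TPM against 88.2, 28.9 and 63.3 TPM (without replicate 2 -2.36 ± 0.53, adjusted p = 0.0497). Col4a1, a basement membrane collagen, was at 14.2, 29.1 and 32.4 TPM against 96.8, 55.4 and 124 TPM (without replicate 2 -2.07 ± 0.38, adjusted p = 0.0356). Both lay lower in every Terc-/- library. All 14 contractile genes had a lower mean in Terc-/-, with a median of -1.55, where 6181 of all 12536 genes were lower. None of the 14 was called in either test, and 5 fell once Terc-/- replicate 4 was left out together with wild-type replicate 2. Acta2, smooth muscle actin, was at 157, 451 and 1147 TPM against 1189, 1737 and 1779 TPM (difference -1.98 ± 0.75, adjusted p = 0.26), and the spread among the Terc-/- libraries was wide. The 15 stromal and osteoblast markers, Dcn included, summed to 288, 670 and 956 TPM in Terc-/- against 1184, 685 and 1044 TPM in wild type, and the osteoblast marker Bglap was listed at 0 throughout. Terc-/- replicate 1 held the lowest and replicate 4 the highest of the Terc-/- values in Acta2, Col3a1 and the stromal marker sum; the part of stromal cells in the lower levels was not tested. Within the stromal markers Lum, another small proteoglycan, was at 0.674, 0.529 and 0.497 TPM against 0.0863, 0 and 0.0584 TPM, below the level needed for the test.

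**Figure D4:**
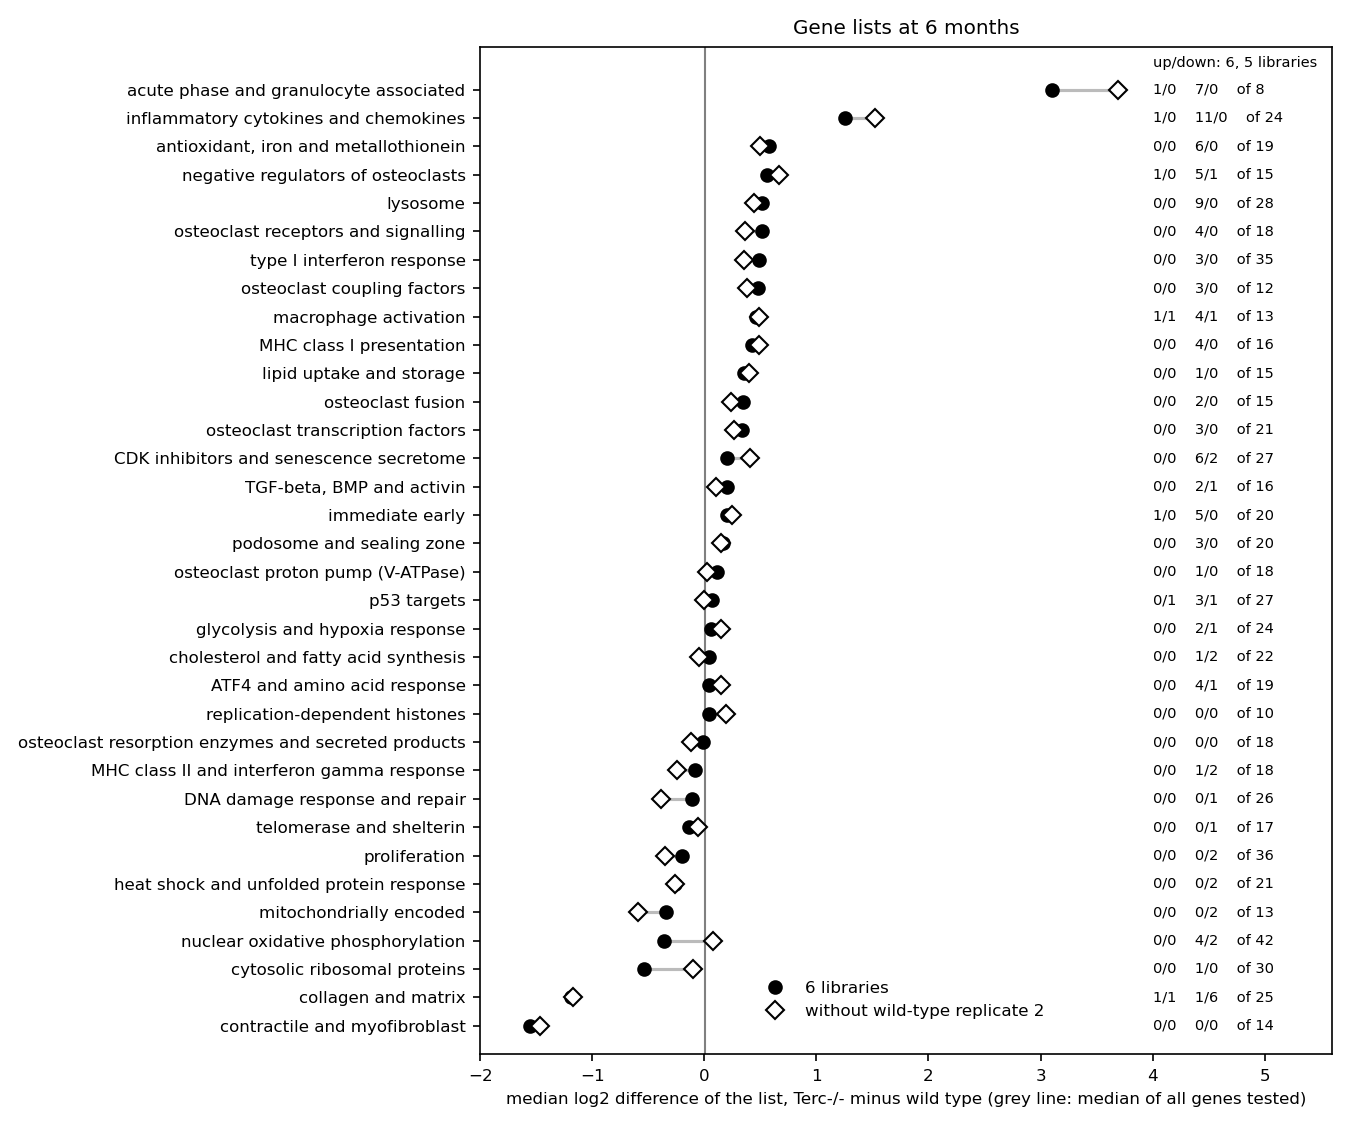
Median log2 difference (horizontal axis, Terc-/- minus wild type) of gene lists (rows) with 6 libraries (filled circle) and without wild-type replicate 2 (open diamond). The cell type marker lists and the sex-linked list are not shown. Numbers at the right are genes called higher/lower in either test, of the genes tested. The acute-phase list stands at 3.10 and 3.69, the contractile list at -1.55 and -1.46, and the grey line is the median of all genes, 0.01.

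In the lists tied to telomere loss the gene called with 6 libraries was Pmaip1, and without wild-type replicate 2 the counts below stand against 6.84% of all genes rising and 2.18% falling. None of 17 telomerase and shelterin genes was called with 6 libraries, at medians of -0.14 and -0.05 in the tests with and without wild-type replicate 2. Without it Gar1, a protein of the ribonucleoprotein that holds Terc, fell (difference -0.57 ± 0.10, adjusted p = 0.0337), from 67.5, 89.3 and 55.8 TPM to 37.3, 40.4 and 38.3 TPM. Of 27 p53 targets Pmaip1, which encodes the pro-apoptotic protein Noxa, fell with 6 libraries, at 9.46, 14.9 and 18.9 TPM against 65.5, 47.3 and 77.1 TPM (difference -2.22 ± 0.28, adjusted p = 0.0321). Without replicate 2 the p53 targets Bbc3, Sesn2 and Fas rose and Pmaip1 fell; the list median was 0.07 with 6 libraries and -0.07 without wild-type replicate 2 and Terc-/- replicate 4. Bbc3, which encodes the pro-apoptotic protein Puma, was at 12.3, 16.6 and 12.4 TPM against 7.83, 6.8 and 4.1 TPM (adjusted p = 0.0372). None of 26 DNA damage genes was called with 6 libraries, and Lig1, the replicative DNA ligase, fell without replicate 2 (difference -0.71 ± 0.14, adjusted p = 0.0396). The list median was -0.11 with 6 libraries and -0.38 without replicate 2, where 24 genes were lower and 2 higher (6408 and 6119 of all genes). Of 36 proliferation genes Top2a and Cenpe fell without replicate 2 only. Their list median was -0.20 with 6 libraries (30 lower, 6 higher) and -0.35 without replicate 2 (31 lower, 5 higher). Of all genes 6181 were lower and 6355 higher with 6 libraries, and 6408 and 6119 without replicate 2. Of 27 genes of the senescence list 6 rose and 2 fell without replicate 2 and none was called with 6 libraries; those that rose include Il6, Ccl7 and Mmp12, secreted proteins also counted above or made by activated macrophages. Mmp12, macrophage elastase, was at 1242, 811 and 1711 TPM against 334, 130.1 and 369 TPM (adjusted p = 0.0738, then 0.0369).

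Of the metabolic and stress genes, Atf3 was called with 6 libraries. Of 42 nuclear oxidative phosphorylation genes none was called with 6 libraries, at a median of -0.36, and 4 rose and 2 fell without wild-type replicate 2, at a median of 0.08, with 6.84% and 2.18% of all genes called in these directions. Uqcrq, a short complex III gene, was at 410.1, 408 and 384 TPM against 199.8, 708 and 216 TPM, with replicate 2 the highest of all. Cycs, cytochrome c, was lower in Terc-/- in every library, at 88.6, 85 and 86.5 TPM against 167, 151 and 165 TPM (adjusted p = 0.0993, then 0.0211). The mitochondrially encoded mt-Atp8 was at 3454, 2819 and 2562 TPM against 12609.8, 1002 and 11527 TPM, so that replicate 2 lay below and replicates 1 and 4 above all Terc-/- libraries. It fell without replicate 2 (difference -1.96 ± 0.17, adjusted p = 0.0114). Of 19 antioxidant and iron genes 6 rose without replicate 2 (6.84% of all genes), none with 6 libraries; Nqo1, a quinone reductase controlled by Nrf2, was at 30.4, 21.9 and 32.9 TPM against 8.51, 7.71 and 9.43 TPM (adjusted p = 0.0654, then 0.0219). Of 20 immediate early genes Atf3 rose with 6 libraries, with Terc-/- libraries close together at 47.7, 48.7 and 47.1 TPM against 21.7, 12.9 and 20.4 TPM (difference 1.23 ± 0.16, adjusted p = 0.0307). Nupr1, a stress-induced nuclear protein, was lower, at 42.3, 59.8 and 68.8 TPM against 197, 551 and 265 TPM (adjusted p = 0.109, then 0.0228).

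Genes called only without wild-type replicate 2 included the 8 highest and 8 lowest by the same rule of naming. The highest not yet given were Hist2h2aa2, U90926 and Csf3. Hist2h2aa2 was at 162, 164 and 92.7 TPM against 0, 70 and 0 TPM, and it has a near-identical neighbour, Hist2h2aa1, at 79.4, 74.3 and 71.7 TPM against 66.1, 117 and 79 TPM, so its value is uncertain. Csf3, granulocyte colony-stimulating factor, was at 3.67, 14.3 and 23.4 TPM against 0.0683, 0.931 and 0.278 TPM (difference 3.40 ± 0.69, adjusted p = 0.0418). The lowest not yet given were Nrep, H19, Efcab7, Col14a1 and Fhl1. H19, an imprinted long non-coding RNA of growing tissue, was at 0.0962, 0.101 and 0.627 TPM against 4.21, 9.25 and 13 TPM (difference -2.72 ± 0.50, adjusted p = 0.0348). Fhl1, a LIM-domain protein of muscle, was at 0.677, 3.78 and 2.3 TPM against 17, 23.5 and 15.1 TPM (difference -2.44 ± 0.43, adjusted p = 0.0321). Without overlap between genotypes there were 3059 genes above (24.4%) and 2971 below (23.7%) in this test, and 1752 above (14%) and 1545 below (12.3%) with 6 libraries.

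The difference between genotypes at 6 months was set against that at 1 month in the unmarked cultures, with an interaction of genotype and age fitted to 12 libraries. It called 60 of 12564 genes (0.478%), of which 47 had a higher difference at 6 months (0.374%) and 13 a lower one (0.103%). Unadjusted p-values below 0.05 numbered 1034. The differences and standard errors given with it for either age come from this fit of 12 libraries. Its spread is shared by all groups in it, which may understate the error at 6 months. Without 6-month wild-type replicate 2, 89 genes were called, 58 of them in both fits. The sexes differed between the 1-month groups: Xist was at 46.6 to 84.1 TPM in the 1-month wild type and no Y-linked gene was expressed there, while the 1-month Terc-/- libraries had the Y-linked pattern of both 6-month groups. At 1 month genotype and sex cannot be told apart, and 3 of the 60 genes are sex-linked.

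Of the 78 genes called at 6 months, 77 could be tested for the interaction, which uses the same 6-month libraries that chose them, so that its values for these genes are a description. The 56 genes that rose at 6 months had a median difference of 0.64 at 1 month and were higher in 1-month Terc-/- in 48 cases, where 51.3% of all genes were higher. The 21 genes that fell had a median of -1.83 at 1 month and were lower in 20 cases, where 48.7% of all genes were lower. The 1-month values come from other libraries than those that chose the genes. Lcn2 was at a mean of 23.8 TPM in 1-month Terc-/- and 14.0 TPM in 1-month wild type, a difference of 0.87 ± 0.58, against 5.91 ± 0.58 at 6 months (interaction 5.05 ± 0.82, adjusted p = 0.0279). Dcn was higher in Terc-/- at both ages, by 1.55 ± 0.24 at 1 month (means of 23 and 7.48 TPM), and the interaction was 3.27 ± 0.34 (adjusted p = 0.00147). Acpp did not pass at 1 month (difference -0.43 ± 0.24), with an interaction of 3.96 ± 0.34 (adjusted p = 3.00e-04).

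Some genes had opposite signs at the 2 ages. Il6 was lower in Terc-/- at 1 month (-2.04 ± 0.25) and higher at 6 months (1.87 ± 0.25), with an interaction of 3.91 ± 0.35 (adjusted p = 4.45e-04). Ly6a, the Sca-1 antigen of progenitor cells, differed by -2.42 ± 0.27 at 1 month and 2.03 ± 0.27 at 6 months (interaction 4.45 ± 0.38, adjusted p = 3.00e-04). The neutrophil chemokine gene Cxcl3 differed by -1.99 ± 0.55 and 2.65 ± 0.55 (interaction 4.64 ± 0.78, adjusted p = 0.0291), and Cck, cholecystokinin, by -2.74 ± 0.55 and 2.70 ± 0.55 (interaction 5.44 ± 0.78, adjusted p = 0.013). Il6, Ly6a, Cxcl3 and Cck were not called at 6 months in the fit of the 6-month libraries alone with all 6 of them. Ly86 was lower in Terc-/- at both ages, more so at 6 months (interaction -1.62 ± 0.24, adjusted p = 0.0139). Nmnat1, an enzyme of NAD synthesis, was higher at 1 month (1.52 ± 0.20) and did not pass at 6 months (-0.37 ± 0.20; interaction -1.89 ± 0.28, adjusted p = 0.0137). Ogn, Prss23, Ccdc80 and Col3a1 were not called for the interaction. At 1 month their means were 0.0970, 4.88, 8.93 and 8.23 TPM in Terc-/- against 14.9, 31.1, 77.2 and 134 TPM in wild type.

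**Figure D5:**
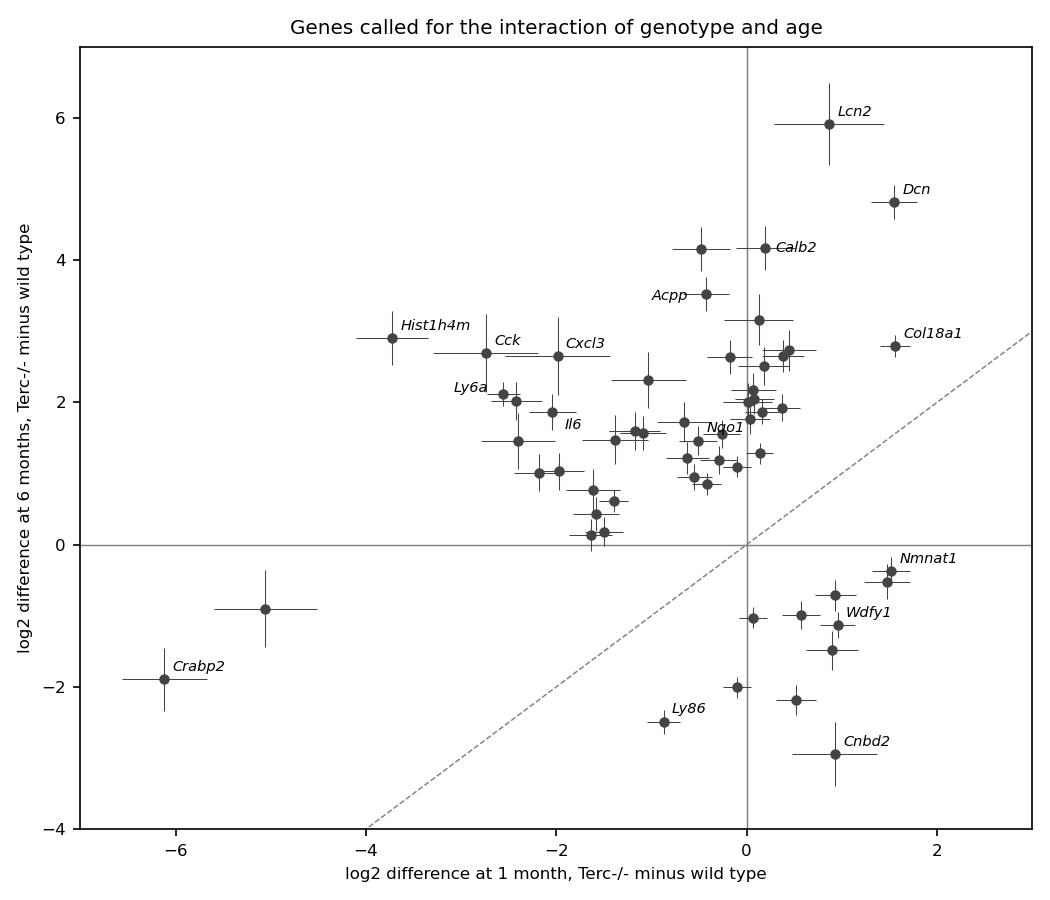
Log2 difference between Terc-/- and wild type at 6 months (vertical axis) against that at 1 month (horizontal axis) for the 57 genes called for the interaction that are not sex-linked, with standard errors as bars; the dashed line marks equal differences. Lcn2 and Dcn lie highest, and Il6, Ly6a, Cxcl3 and Cck lie to the left of 0 at 1 month and above 0 at 6 months.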

How the data were processed

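Osteoclast cultures of 6-month-old Terc-/- and wild-type mice, 3 libraries each, were compared, with 6 further libraries of 1-month-old mice for the interaction of genotype and age. The authors deposited TPM, normalized within each library, as the equal sums of all columns show. Each column was assigned through its sample's title. HTSeq and the genome mm10 are named without versions, per the submitters' processing notes; for the aligner, the sources used here give no name. The tables held 45706 genes, of which 45143 matched GENCODE M21 by identifier and 563 did not. Between no pair of the 6-month libraries compared did a gene above 0 have the same value.

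Libraries were scaled to each other by a trimmed mean without weights, after removing the outer 30% of log ratios and 5% of levels on each side, and log2(scaled TPM + 1) was analysed. Per-library levels in the text are as deposited. Genes that averaged 1 TPM or more in these 6 libraries entered limma with trend and robust moderation, fitted to these 6 libraries alone, because 1 library stood apart and a spread shared with other groups would understate the error. P-values were adjusted by Benjamini-Hochberg at 0.05. The code was tested on simulated data. The fits used limma 3.58.1 in R 4.3.3; tables and figures were made in Python 3.11.15, using matplotlib 3.10.9, numpy 2.4.6 and pandas 2.3.3.

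The members and the 46 gene lists (862 entries, 800 different genes, of which 797 matched by symbol, 2 by synonym and 1 not at all) were chosen with earlier results of these data known. Named genes were Terc, the 12 highest and 12 lowest called with 6 libraries, the 8 highest and 8 lowest called only without wild-type replicate 2, called members of the osteoclast lists, up to 4 called members of other lists, and 5 and 5 for the interaction; 2 of the genes so chosen are not reported here. The first of these needed a mean of at least 5 TPM in 1 group and groups that do not overlap, and left out predicted genes, clones, pseudogenes and sex-linked genes. Alternatives were TPM without scaling, median-ratio scaling, 0.1 as pseudocount, testing without a filter, a replicate block, all 10 groups in the fit, library weights and leaving out each library. Leaving out wild-type replicate 2 and Terc-/- replicate 4 together was chosen after seeing the data. Promoter sequences came from RefSeq (GRCm38.p6).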

Additional observations from a re-analysis of the deposited data

Results flagged for a closer look

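Differences between genotypes that themselves differed between 6 months and 1 month are given here as interaction values on the log2(TPM + 1) scale, 6 months minus 1 month, all with limma adjusted p below 0.05. There were 60 such genes over the whole table. Genes named for their 6-month difference share the 6-month libraries with this test, which is therefore no independent support for them. Among the genes named above, the interaction was 5.05 for Lcn2, 3.27 for Dcn, 3.97 for Calb2, 3.96 for Acpp, 2.29 for Slc7a2, 2.27 for Clec4e and 1.23 for Col18a1. It was 6.63 for Hist1h4m, which is listed at 0 in the 6-month wild type and in the 1-month Terc-/- libraries and has near-identical copies. It was 3.91 for Il6, 4.64 for Cxcl3, 4.45 for Ly6a, 5.44 for Cck and 1.97 for Nqo1. Lower values at 6 months were -3.87 for Cnbd2, -2.09 for Wdfy1, -1.99 for the immunoglobulin gene Ighm, -1.89 for Nmnat1 and -1.62 for Ly86. The 1-month wild-type libraries have the expression of female mice and the other 3 groups that of male mice, so age, sex and genotype cannot be told apart in these values.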

How the results depend on the processing

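None of the single-gene values recomputed changed sign under an alternative, whereas the median changed sign under at least 1 alternative for 12 of 40 gene lists with 6 libraries (the furthest from 0 was the osteoclast markers, at -0.37) and for 12 of 40 without wild-type replicate 2 (-0.32). The number of genes called with 6 libraries (78) was 65 without scaling (54 higher, 11 lower; median of all genes 0.13), 78 with median ratios, 72 with a pseudocount of 0.1 and 14 without a filter. It was 3637 with all 10 groups in the fit, which share 1 spread, 7960 with library weights, a fit that did not converge and gave wild-type replicate 4 a weight of 51.1, and 953 without wild-type replicate 2 and Terc-/- replicate 4. Leaving out 1 library gave 1 to 1130 genes. Without wild-type replicate 2 (1130), the number was 981 without scaling (581 higher, 400 lower), 352 without a filter and 3929 with all 10 groups, and leaving out another library gave 26 to 953: 72 and 50 without Terc-/- replicates 1 and 2, 26 and 272 without wild-type replicates 1 and 4. The interaction (60) gave 455 with all 10 groups and 23 to 92 leaving out 1 library, with a median of all genes of 0.17 without scaling. Deviations of same-numbered replicates correlated at 0.266, -0.105 and 0.130, and those of other-numbered replicates at -0.351 to 0.193. These few values cannot decide whether same-numbered replicates pair. With the replicate block 7 genes were called with 6 libraries, 1428 without wild-type replicate 2 and 26 for the interaction. Among values of single genes with 6 libraries, 220 kept and 172 lost the call. The causes were not tested. Read depth is unknown, so no counting error can be given, and the calls rest on 3 libraries a group.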

Other observations

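The series also holds 3 cultures of 6-month-old Terc-/- mice whose titles carry the mark 519, which the labels do not explain. Above they entered only the fit that shares 1 spread over all 10 groups. They are given as values only, and any comparison of them with the 6-month wild type would share its control libraries. In these libraries Lcn2 was at 3772 to 4900.4 TPM, Saa3 at 34072 to 61135 TPM, Slpi at 3756 to 5380.0 TPM and Wfdc17 at 5389 to 6903 TPM, each above all 3 unmarked Terc-/- libraries. Dcn was at 60.1 to 220.1 TPM, against 65.3 to 98.2 TPM in the unmarked Terc-/- libraries. Of genes low in the unmarked Terc-/- libraries, Ogn was at 0 to 0.0703 TPM, Prss23 at 2.34 to 3.09 TPM and Ly86 at 8.30 to 10.4 TPM. Other genes lay outside the unmarked Terc-/- range: Pla1a was at 12.8 to 15.4 TPM against 2.77 to 6.5 TPM, Yes1 at 2.48 to 3.14 TPM against 0.812 to 1.45 TPM, and Calb2 at 3.61 to 8.97 TPM against 11.3 to 23.7 TPM.

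In the unmarked wild-type cultures of 20-month-old mice, Lcn2 was at 0.481 to 8.21 TPM and Dcn at 0.248 to 1.18 TPM, close to the 6-month wild type, and Ogn was at 13.1 to 34.6 TPM.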
